A study of Rattus norvegicus with 30 samples.

Results

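The miRNAs of urinary exosomes were compared between sham rats and rats in which both kidneys underwent ischemia-reperfusion injury (IRI), 1 day after the surgery. All 110 miRNAs of the day 1 table were taken, of 122 miRNAs listed on any of the 5 days of the series, in 6 of its 30 libraries. All rats were males of the Sprague Dawley strain, 10 weeks old. In IRI rats 1, 2 and 13 both renal pedicles were clamped and then reperfused, and sham rats 3, 6 and 9 had the same operation without the clamps. Each library holds the small RNA of exosomes from the urine of 1 rat (n = 3 rats per group), and no rat is in both groups. As bulk samples of urine they do not tell which cells released the vesicles, and fewer cells of a type cannot be told apart from less RNA per cell or vesicle.

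miRNAs are short RNAs that pair with messenger RNAs, chiefly through the seed at bases 2 to 8 of the mature strand, and lower their translation or stability. miRNAs with the same seed form a family with overlapping targets. Cells lining the nephron and the urinary tract release exosomes, small vesicles that carry part of their miRNAs into the urine, where membrane and bound protein shield them from nucleases.

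The sequences of the miRNAs on which the comparison turned are shown with the seed in capitals. They come from RefSeq (build GRCr8), which held 97 of the 110 miRNAs by name. miR-378b was among the others. The first 4 are the let-7 miRNAs that led both groups and share 1 seed, and the next pair, miR-101a-3p and miR-101b-3p, share another.
let-7f-5p: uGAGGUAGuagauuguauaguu
let-7c-5p: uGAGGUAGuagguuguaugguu
let-7a-5p: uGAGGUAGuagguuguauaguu
let-7b-5p: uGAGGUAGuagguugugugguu
miR-101a-3p: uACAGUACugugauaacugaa
miR-101b-3p: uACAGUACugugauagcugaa
miR-200c-3p: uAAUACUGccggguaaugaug
miR-141-3p: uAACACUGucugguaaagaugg
miR-16-5p: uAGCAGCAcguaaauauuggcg
miR-24-3p: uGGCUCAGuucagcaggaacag
miR-23b-3p: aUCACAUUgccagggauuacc
miR-378a-3p: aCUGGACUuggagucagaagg
miR-3473: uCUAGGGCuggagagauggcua
miR-101a-3p lies at chr5:121081691-121081711 on the minus strand and miR-101b-3p at chr1:236273982-236274002 on the plus strand. miR-200c-3p (chr4:159209969-159209989) and miR-141-3p (chr4:159209540-159209561) are neighbours on the minus strand, with seeds that differ at 1 base. miR-23b-3p (chr17:1819405-1819425) and 1 of the 2 copies of miR-24-3p (chr17:1818672-1818693) also lie near each other on the minus strand. Between them lies miR-27b-3p (chr17:1819163-1819183).

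Depth was the first difference between the groups. The deposited values are scaled counts. Low values of a library came in whole multiples of a common step, which was taken as what 1 read is worth. By this step the listed miRNAs amounted to 1199, 2125 and 935 reads in sham rats 3, 6 and 9 and to 35676, 11165 and 50722 reads in IRI rats 1, 2 and 13. Every IRI library was thus deeper than every sham library (exact permutation test, two-sided, p = 0.1, adjusted p = 0.25 over 5 library measures), and 0.1 is the smallest p that 3 against 3 libraries can give. On the other days the ranges overlapped, though some IRI libraries of days 2 and 3 were far deeper. Sham libraries held 696 to 1955 reads at day 2 and 289 to 909 at day 3, and IRI libraries 1122 to 10542 and 691 to 12739. At day 14 sham libraries held 666 to 1796 and IRI libraries 651 to 1157 reads. A single read was worth 402 to 936 scaled units in sham and 22.7 to 76.5 in IRI libraries. The lanes named in the labels go with the groups as well, with IRI rats 1 and 2 in lane 2, sham rats 3 and 6 in lane 3, and sham rat 9 and IRI rat 13 in lane 4. Surgery, depth and lane therefore cannot be told apart, except that the lane 4 pair shares its lane.

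More miRNAs were detected in the deeper group, though within IRI the number did not follow the depth in every rat. IRI rat 1 had 101 at 35676 reads and IRI rat 2 had 103 at 11165 reads. Of the 110 miRNAs, 75, 81 and 75 were above 0 in sham rats 3, 6 and 9, against 101, 103 and 108 in IRI rats 1, 2 and 13. The means were 77.0 ± 3.46 in sham and 104 ± 3.61 in IRI (SD, n = 3 each, exact permutation test, p = 0.1, adjusted p = 0.25). At an equal depth of 935 reads, that of the shallowest library, the expected number was 71.2, 67.7 and 75.0 in sham and 64.5, 71.3 and 72.1 in IRI. The 2 ranges overlapped at this depth, with means of 71.3 ± 3.65 and 69.3 ± 4.17 (SD, n = 3 each, exact permutation test, p = 0.7, adjusted p = 1.0). In sham libraries 26 to 33 miRNAs were seen in only 1 or 2 reads, and in IRI libraries 2 to 12.

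**Figure D1:**
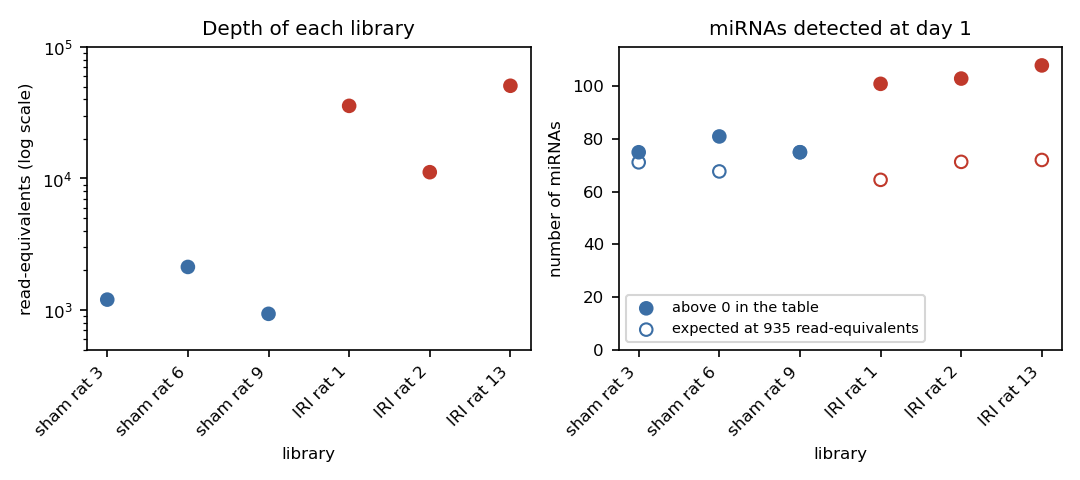
Read-equivalents of each library on a log axis (left) and number of miRNAs (right), for sham rats in blue and IRI rats in red. Filled points are the miRNAs above 0 in the table and open points the number expected at 935 read-equivalents. The filled points of IRI (101 to 108) lie above those of sham (75 to 81), and the open points of the groups overlap.

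The make-up of the libraries was alike at the top of the abundance order. let-7f-5p, of the let-7 family that restrains cell proliferation and is abundant in differentiated tissue, was first in all 6 libraries, with 18.2, 24.05 and 17.5% of the reads in sham rats 3, 6 and 9 and 19.0, 20.1 and 19.5% in IRI rats 1, 2 and 13. Its mean share was 19.9% ± 3.59 in sham and 19.5% ± 0.554 in IRI (SD, n = 3 each, exact permutation test, p = 1.0). let-7c-5p had rank 2 and let-7a-5p rank 3 in every library, and let-7b-5p had rank 4 in all but IRI rat 13, where it had rank 5. The 9 let-7 miRNAs listed together made up 56.2, 61.5 and 49.7% of the sham reads and 60.7, 47.2 and 47.1% of the IRI reads. The 10 most abundant miRNAs of each library held 71.5% ± 2.69 of sham and 70.7% ± 5.29 of IRI reads (exact permutation test, p = 0.8, adjusted p = 1.0).

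Of the 10 miRNAs with the highest mean share, 8 were common to both groups, and 5 stood in the top 10 of all 6 libraries. miR-21-5p, a miRNA that rises in many injured and fibrotic tissues, ranked 7 in sham and 5 in IRI. Its share was 1.67, 2.02 and 4.17% in sham and 2.47, 4.20 and 7.62% in IRI, with sham rat 9 above IRI rat 1, and its log2 fold change of 1.19 had a 95% interval from -0.09 to 2.48 (limma, adjusted p = 0.370). miR-26a-5p, miR-30a-5p and miR-200a-3p, all abundant in kidney epithelium, kept ranks of 6 to 10 in both groups. miR-378a-3p and miR-10a-5p were in the top 10 of sham alone, and miR-16-5p and miR-148a-3p in that of IRI alone. miR-148a-3p varied widely among IRI rats, with 3.85, 0.35 and 2.01% of the reads.

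**Figure D2:**
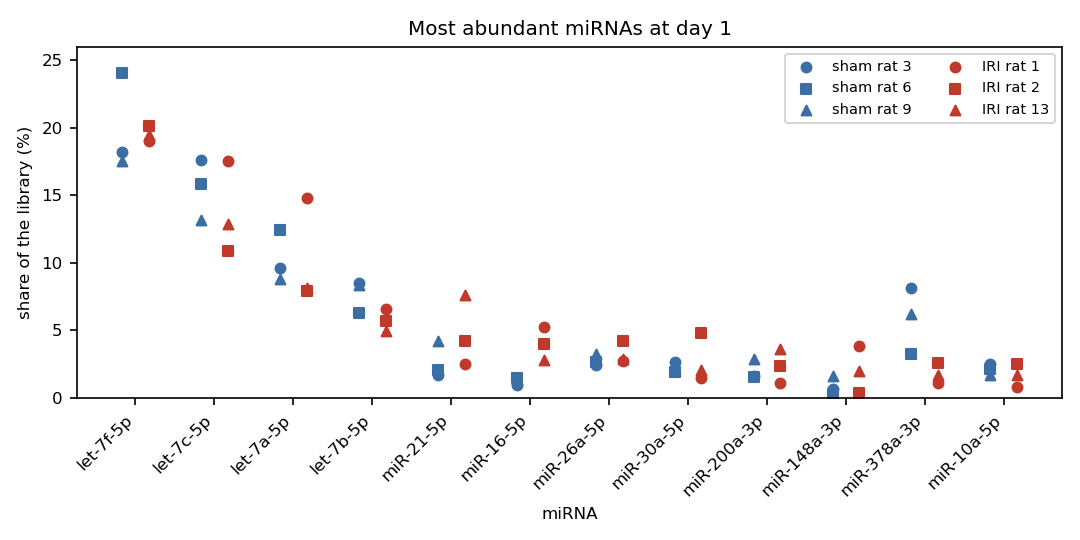
Share of the library, in percent, of the 12 miRNAs that were among the 10 most abundant of either group, with 1 point per library (sham rats in blue, IRI rats in red). let-7f-5p holds 17.5 to 24.05% in every library, miR-16-5p lies higher in all IRI rats and miR-378a-3p lower.

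Libraries were also compared over the whole order of abundance, as a description with no test. Spearman's rho over the 110 miRNAs was 0.70 to 0.72 between sham libraries, 0.80 to 0.85 between IRI libraries and 0.67 to 0.80 between a sham and an IRI library. Pairs of libraries share the zeros of shallow libraries, and over the 54 miRNAs above 0 in all 6 libraries the ranges were 0.75 to 0.81, 0.83 to 0.84 and 0.63 to 0.85. The share of reads that would have to be reassigned to turn 1 library into another (Bray-Curtis) was 17.6 to 21.6% within sham, 18.02 to 25.4% within IRI and 18.8 to 26.7% between the groups. The lowest likeness in each measure was that of a pair across the groups, but these were 9 pairs against 3 within each group. The median rho over the 110 miRNAs was 0.719 across the groups, 0.708 within sham and 0.817 within IRI. The median Bray-Curtis value was 23.80, 18.84 and 23.81% in the same order, and the ranges overlapped. Among IRI rats the highest share of a miRNA was a median of 2.48 times the lowest over these 54 miRNAs, and among sham rats 2.27 times. miR-203a-3p, a miRNA of stratified epithelium, had the widest spread, at 1744 and 2756 scaled units in IRI rats 1 and 2 and 41516 in IRI rat 13.

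In the test of each miRNA on the log2(value + 500) scale with limma, 1 of 110 passed an adjusted p of 0.05, which was higher in IRI (0.909%), and 0 were lower. Without adjustment, 9 miRNAs higher in IRI (8.18%) and 4 lower (3.64%) had a p under 0.05. The groups did not overlap for 18 miRNAs higher in IRI (16.4%) and 4 lower (3.64%), and these 22 included all 13 miRNAs with such a p. Of the 18, 11 were at 0 in every sham library. These were above 0 in the 3 IRI libraries alone, the fewest libraries of any listed miRNA, so they could only lie higher. The 18 to 4 and 9 to 4 splits are thus partly set by which miRNAs were listed. Of the 18, 9 had an IRI mean under 2068 scaled units, the mean over the sham libraries of what a count of 0 allows (3 reads). On shares that limit was 0.237% of a library, and 10 of the 18 lay under it. Such limits cover counting error only. On shares of the library in place of scaled values, the groups did not overlap for 14 higher and 4 lower miRNAs, and miR-30e-5p, miR-29a-3p, miR-200b-3p and miR-26a-5p were those lost. Scaled totals were 854327 to 875589 in sham and 854670 to 1481465 in IRI. The median log2 fold change of all miRNAs was 0.30, and 0.11 with the same total in every library, a shift of 0.19 against which the log2 fold changes are to be read. The log2 fold change was above 0 for 78 of the 110 miRNAs (70.9%). The 9 to 4 split became 6 to 4 with the same total, 4 to 6 recentred on the median, 4 to 9 with a constant worth 0.5 read in each library and 5 to 8 with voom weights.

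**Figure D3:**
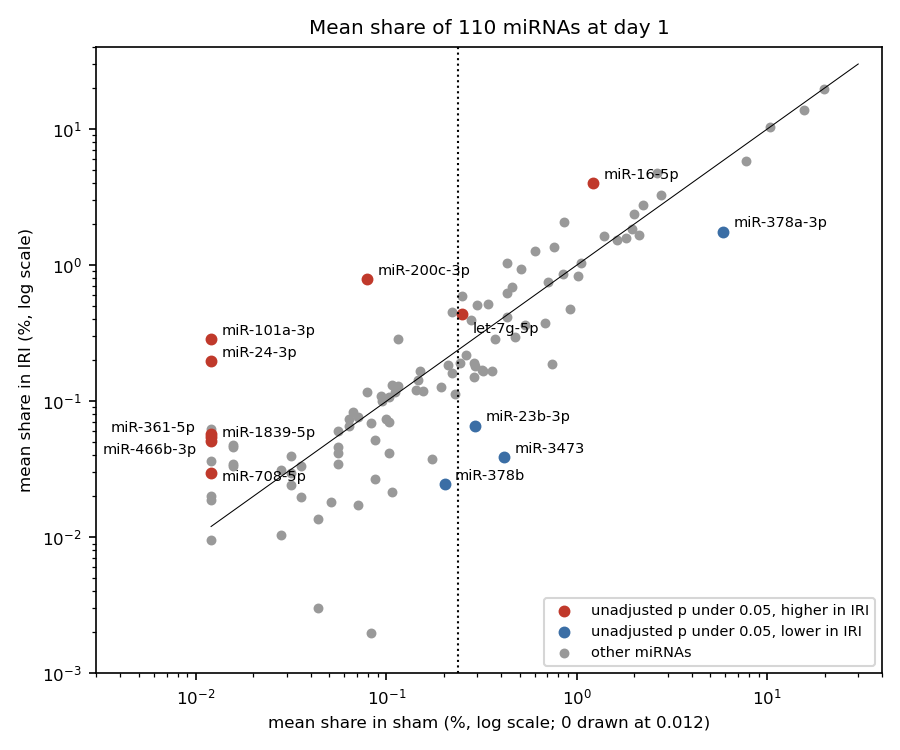
Mean share of each of the 110 miRNAs in sham and in IRI, in percent on log axes, with the line of equal share and, dotted, the 0.237% that a count of 0 allows in sham on average. Red and blue points have an unadjusted p under 0.05 in limma, higher or lower in IRI, and most of the red points lie at a sham share of 0, drawn at 0.012.

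miR-101a-3p rose in IRI and was the only miRNA past the adjusted threshold in this fit. miR-101 is known for targeting Ezh2, a histone methyltransferase. It was 1 of 11 miRNAs at exactly 3 libraries above 0, all of them IRI, so that it was listed through the IRI libraries alone and had to lie higher there. Sham, at 0 throughout, added no spread to its test. It was at 0 in all 3 sham rats and at 3364, 2679 and 3611 scaled units in IRI rats 1, 2 and 13, or 81, 35 and 159 reads. The IRI rats lay close together, at a share of 0.227, 0.313 and 0.313%. Its log2 fold change was 2.89 (SE 0.28, adjusted p = 0.00383 from limma), and against the sham limit its mean was at least 1.56-fold higher in scaled units and at least 1.199-fold higher in share. At the mean IRI share the 3 sham libraries together would have held 12.1 reads of it, and at the lowest IRI share 9.67, where 0 were seen. In a single sham library the 95% limit on the share (Clopper-Pearson) was 0.307, 0.173 and 0.394%, so that only sham rat 6 was deep enough to lie below every IRI share. Its seed mate miR-101b-3p was at 729, 0 and 936 units in sham and at 747, 919 and 749 in IRI, with overlapping groups. The adjusted p of miR-101a-3p from limma was 0.0503 with an intensity trend and 0.101 with voom weights. With lane as a covariate the log2 fold change of miR-101a-3p was 3.04, which rests on the lane 4 pair alone (sham rat 9 and IRI rat 13). With all values below 3 reads of the shallowest library raised to that floor its log2 fold change was 0.21 (adjusted p = 0.952 from limma).

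The other 10 miRNAs at 0 in all sham rats give a smaller margin over depth. miR-24-3p, of the miR-23, miR-27 and miR-24 clusters, had 88, 12 and 122 reads in IRI rats 1, 2 and 13 (3654, 919 and 2771 units), and 8.44 reads would have been expected in sham at the mean IRI share, or 4.58 at the lowest. The IRI rats thus differed among themselves, with rat 2 lowest, and the IRI mean was at least 1.18-fold higher than the sham limit in scaled units but under it in share, at 0.198% (log2 fold change 2.42, adjusted p = 0.0695 from limma). For the remaining 9 the sham reads expected at the mean IRI share were under 3. They were 2.68 for miR-743a-3p, 2.43 for miR-361-5p, 2.34 for miR-1839-5p, 2.16 for miR-466b-3p, 1.55 for miR-743b-3p, 1.26 for miR-708-5p, 0.86 for miR-222-3p, 0.80 for miR-361-3p and 0.41 for miR-107-3p. Their absence from sham was therefore not detectable as a difference at this depth. No miRNA was at 0 in all IRI libraries, and every listed miRNA was above 0 in at least 3 libraries, so that a miRNA seen in 1 or 2 sham libraries alone is not in the table.

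miR-200c-3p and miR-16-5p lay higher in IRI, in scaled value and in share, without being at 0 in sham. miR-200c-3p, of the miR-200 family that keeps cells epithelial by repressing Zeb1 and Zeb2, had exactly 1 read in each sham rat (729, 402 and 936 units) and 268, 40 and 641 reads in IRI rats 1, 2 and 13 (11129, 3062 and 14558 units). Where 3 reads were seen in sham, 33.7 would have been expected at the mean IRI share. Its log2 fold change was 2.87 (SE 0.60, adjusted p = 0.0695 from limma), and it was 3.50 (adjusted p = 0.00937 from limma) without IRI rat 2, the IRI rat with the lowest value. It was 1.49 (adjusted p = 0.952 from limma) with the common floor of 3 reads, and over all alternatives the adjusted p from limma ran from 0.00937 to 0.952. The upper limits on its sham share (Clopper-Pearson, 95%) were 0.464, 0.262 and 0.594%, with IRI shares of 0.751, 0.358 and 1.26%, so only IRI rat 2 fell below 2 of these limits.

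miR-16-5p, which targets cyclins and Bcl2 and is abundant in red blood cells, had more reads behind it than the other 8 miRNAs that lay higher with an unadjusted p under 0.05. It was at 8023, 12463 and 11238 units in sham rats 3, 6 and 9 (11, 31 and 12 reads) and at 77694, 33988 and 32477 in IRI rats 1, 2 and 13 (1871, 444 and 1430 reads). The lowest IRI value was above the highest sham value, and by rank it moved from 18, 15 and 17 in sham rats to 5, 8 and 9 in IRI rats. Its share was 1.22% ± 0.276 in sham and 4.01% ± 1.21 in IRI (SD, n = 3 each). The log2 fold change was 2.03 (SE 0.44, adjusted p = 0.0695 from limma). In sham 54 reads were seen where 171 would have been expected at the mean IRI share. Of 4 red blood cell markers, miR-16-5p and miR-486 were among the 110 miRNAs. miR-486 was at 1459, 402 and 936 units in sham and 0, 536 and 23 in IRI, the reverse order with overlapping groups (log2 fold change -1.08, adjusted p = 0.370 from limma), and the part of red blood cells in the miR-16-5p difference was not tested further.

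let-7g-5p, another let-7 miRNA, was at 2188, 2412 and 1873 units in sham rats 3, 6 and 9, from 3, 6 and 2 reads, and at 6686, 4746 and 3475 in IRI rats 1, 2 and 13. The groups did not overlap (log2 fold change 1.00, SE 0.34, adjusted p = 0.233 from limma), and its sham values rest on 11 reads. Of the 9 let-7 miRNAs, 7 had a log2 fold change above 0, with a median of 0.34 against 0.30 over all miRNAs, and 1 had an unadjusted p under 0.05. Over all 110 miRNAs 70.9% were above 0 and 11.8% had such a p. The summed share of the family was 55.8% ± 5.87 in sham and 51.6% ± 7.82 in IRI (SD, n = 3 each).

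The 4 miRNAs that lay lower in IRI were above 0 in all 6 libraries. miR-378a-3p, which is made from an intron of Ppargc1b and is known for its part in mitochondrial metabolism, was at 71474, 27741 and 54315 units in sham rats 3, 6 and 9 and at 15738, 21970 and 19100 in IRI rats 1, 2 and 13. It had rank 5 in every sham library, with 8.17, 3.25 and 6.203% of the reads, and ranked 17, 9 and 15 in IRI rats, with 1.06, 2.57 and 1.66%. The groups did not overlap, and in IRI 1507 reads were seen where 5731 would have been expected at the mean sham share. Its log2 fold change was -1.32 (SE 0.43, adjusted p = 0.223 from limma). miR-378b, of the same family by name, was at 2188, 1206 and 1873 units in sham (3, 3 and 2 reads) and at 83, 230 and 477 in IRI (2, 3 and 21 reads). Its log2 fold change was -1.57 (SE 0.35, adjusted p = 0.0695 from limma), and it was 0 with the common floor of 3 reads. Reads of the 2 could be shared between them, as members of 1 family, and how such reads were counted is not given in the sources used here. Their summed share was 6.08% ± 2.53 in sham and 1.79% ± 0.769 in IRI (SD, n = 3 each), without overlap.

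miR-3473 was at 5105, 2010 and 3746 units in sham rats 3, 6 and 9 and at 831, 459 and 68 in IRI rats 1, 2 and 13, with the lowest value in the deepest library. The groups did not overlap, and 1 IRI rat had as few as 3 reads (7, 5 and 4 reads in sham, 20, 6 and 3 in IRI). In IRI 29 reads were seen where 405 would have been expected at the mean sham share, and its log2 fold change was -2.12 (SE 0.47, adjusted p = 0.0695 from limma). With the same total in every library, or recentred on the median, it was -2.39 or -2.36 and passed the threshold (adjusted p = 0.0417 and 0.0343 from limma). In the other 14 alternatives it did not, and with the common floor of 3 reads it was -0.43 (adjusted p = 0.952 from limma).

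Sham rats 3, 6 and 9 held miR-23b-3p at 2917, 2814 and 1873 units, and it was at 332, 612 and 1204 in IRI rats 1, 2 and 13. The groups did not overlap, and 69 reads were seen in IRI where 285 would have been expected at the mean sham share (log2 fold change -1.36, SE 0.38, adjusted p = 0.169 from limma). Its sham values rest on 4, 7 and 2 reads, and with the common floor of 3 reads its log2 fold change was -0.019. Its seed mate miR-23a-3p was at 0, 0 and 1873 units in sham and at 1370, 153 and 1363 in IRI, with overlapping groups. The 2 clusters that hold these miRNAs were thus mixed at day 1. Of their 5 members, miR-24-3p lay higher in IRI, miR-23b-3p lower, and miR-23a-3p, miR-27a-3p and miR-27b-3p overlapped. miR-27b-3p, the most abundant of the 5, held 0.533% ± 0.208 in sham and 0.360% ± 0.130 in IRI (SD, n = 3 each). miR-24-3p has a copy in each cluster, and the summed share of the 5 was 0.952% ± 0.194 in sham and 0.736% ± 0.0456 in IRI (SD, n = 3 each).

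**Figure D4:**
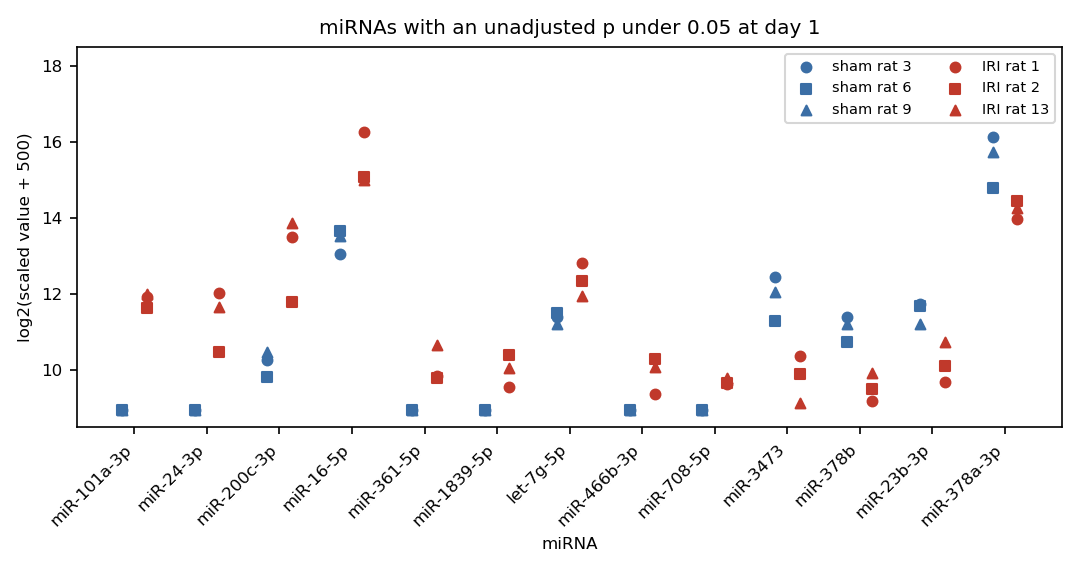
Value of each library, as log2(scaled value + 500), for the 13 miRNAs with an unadjusted p under 0.05 in limma at day 1 (sham rats in blue, IRI rats in red, 9 higher in IRI and 4 lower). For all 13 the 3 IRI points lie on 1 side of the 3 sham points, and 6 miRNAs have all sham points at 0.

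Families and clusters were described by their summed share, with no test. All 5 members of the miR-200 family had a log2 fold change above 0, with a median of 1.63, where 70.9% of all miRNAs were above 0 with a median of 0.30. The family made up 2.42, 2.21 and 4.92% of sham reads and 3.06, 4.58 and 8.59% of IRI reads, with sham rat 9 above IRI rats 1 and 2. Within it only miR-200c-3p had no overlap in share (12.7% of all miRNAs lay higher in this way), miR-200b-3p had none in scaled value alone, and miR-141-3p, next to miR-200c-3p in the genome, was at 0, 0 and 6555 units in sham and at 4526, 3139 and 12718 in IRI. In lane 4, sham rat 9 and IRI rat 13 held 4.92 and 8.59% of the family. The 3 members of the miR-29 family, known for repressing collagen genes, were above 0 in fold change as well (median 1.53), at a share of 0.839% ± 0.721 in sham and 1.37% ± 0.321 in IRI (SD, n = 3 each), and overlapped in sum. miR-29c-3p was at 0 in sham rats 3 and 9 and at 5629 units in sham rat 6.

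For most other lists the groups overlapped. The miR-30 family, abundant in podocytes and tubules, held 5.40% ± 0.329 in sham and 5.94% ± 2.83 in IRI, and the miR-183, miR-96 and miR-182 cluster 2.06% ± 0.750 and 2.95% ± 1.44 (SD, n = 3 each). The miR-148 and miR-152 family held 1.11% ± 0.798 and 2.32% ± 1.79. miR-10 and miR-196 miRNAs, encoded in the Hox clusters, held 4.17% ± 0.293 and 3.46% ± 1.01. Of the 25 lists with a listed member, 6 had no overlap. These were the miR-101, miR-378, miR-23 cluster, miR-16, red blood cell and germ line sums. By share, 14 of the 110 single miRNAs lay higher without overlap and 4 lower. The germ line miRNAs were at 0 in all sham libraries, so that sum had to lie higher in IRI. The miR-101 sum was apart through miR-101a-3p, which was listed through the IRI libraries alone. Its other member, miR-101b-3p, held 0.063% in sham and 0.074% in IRI, with overlapping groups. The red blood cell sum repeats miR-16-5p, and its other listed member, miR-486, held 0.107% in sham and 0.022% in IRI.

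**Figure D5:**
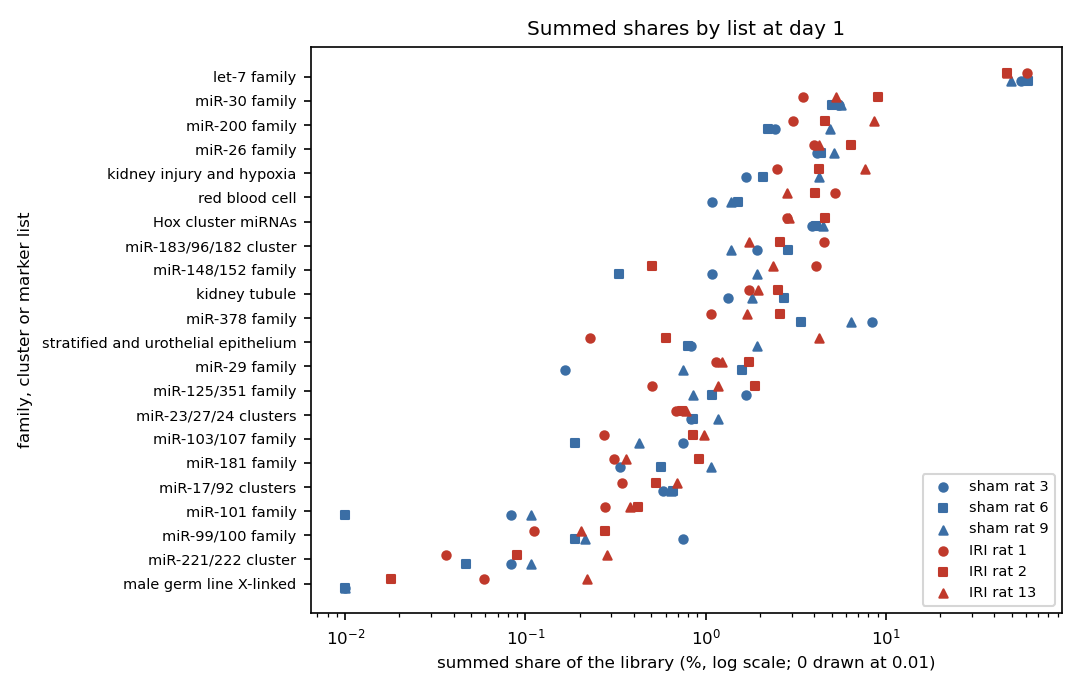
Summed share of the library, in percent on a log axis, of each family, cluster or marker list with 2 or more listed miRNAs, with 1 point per library (sham rats in blue, IRI rats in red). The let-7 family leads with 47.1 to 61.5%, the miR-378 family lies lower in all IRI rats, and most other lists overlap.

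Markers of cell types that could release vesicles into urine were read the same way. Of the 4 kidney tubule miRNAs, miR-192-5p, miR-194-5p and miR-204-5p were listed, and their sum was 1.33, 2.73 and 1.82% in sham and 1.75, 2.51 and 1.95% in IRI, with overlapping groups. miR-192-5p and miR-194-5p were above 0 in every library, and miR-204-5p was at 0 in sham rats 3 and 9. The urothelial and stratified epithelium markers miR-203a-3p, miR-203b-3p and miR-205 summed to 0.834, 0.800 and 1.92% in sham and to 0.227, 0.600 and 4.25% in IRI, with IRI rat 13 highest and IRI rat 1 lowest of the 6. Of 6 leukocyte markers only miR-142-3p was listed, at 0, 0 and 1873 units in sham and 0, 153 and 386 in IRI. Of 4 muscle markers only miR-206-3p was listed, and of the endothelial and liver markers none. miR-743a-3p and miR-743b-3p, 2 of 10 miRNAs of an X-linked group expressed in the male germ line, were at 0 in sham. They summed to 0.059, 0.018 and 0.221% of IRI reads, under the 0.237% that a count of 0 allows in a single sham library on average. Over all sham libraries together, 2.68 and 1.55 reads of these miRNAs were expected at the mean IRI share. The miRNAs of injury and hypoxia, miR-21-5p, miR-34a-5p and miR-146b-5p of 6 in the list, summed to 1.67, 2.07 and 4.28% in sham and 2.50, 4.27 and 7.71% in IRI. The part of any cell type in the differences between the groups was not tested.

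Grouped by seed, the 97 miRNAs with a sequence held 70 seeds, of which 15 were shared by 2 or more miRNAs. The summed share of a seed lay above sham in all IRI rats for 11 seeds and below for 3. Of the 11, 8 were single miRNAs at 0 in all sham libraries, among them 7 with under 3 expected sham reads. The 3 below were CUGGACU of miR-378a-3p, UCACAUU of miR-23a-3p and miR-23b-3p, and CUAGGGC of miR-3473. miR-23a-3p and miR-23b-3p together held 0.364% ± 0.056 in sham and 0.142% ± 0.071 in IRI (SD, n = 3 each). Of the 11 above, only ACAGUAC of miR-101a-3p and miR-101b-3p had more than 1 listed member, at 0.0634% ± 0.0562 in sham and 0.359% ± 0.0737 in IRI. This seed too was apart through miR-101a-3p, at 0 in all sham libraries, as miR-101b-3p overlapped.

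Of the 13 miRNAs with an unadjusted p under 0.05 at day 1, 9 were listed on another day and were followed in the tables of the other days, each scaled on its own, from the same 6 rats. miR-378a-3p had a log2 fold change of -2.55, -2.31, -1.16 and -0.47 at days 2, 3, 7 and 14, below 0 on every day, and miR-16-5p had 0.51, 0.93, 0.76 and 0.50, above 0 on every day (adjusted p from limma 0.0863 to 0.781 and 0.697 to 0.797). miR-101a-3p, the miRNA that passed at day 1, had 1.56 at day 2, 0.14 at day 3 and -0.14 at day 14 (adjusted p = 0.501, 0.944 and 0.928 from limma) and had no row at day 7. It was seen in sham at day 2 in rat 9 (1372 units), at day 3 in rats 3 and 6 (2829 and 1067 units) and at day 14 in rats 3 and 9 (1298 and 2936 units). miR-3473 had -1.88, -1.02, -1.01 and -0.24, and miR-24-3p 1.64, 1.44, 1.33 and -1.14, none past the threshold. miR-23b-3p, lower at day 1, had 0.63, 0.20, -3.41 and -2.92 on these days, the -3.41 of day 7 past the threshold (adjusted p = 0.0166 from limma). At days 7 and 14 miR-23b-3p was at 0 in all IRI rats, so that IRI added no spread to these fits. Day 7 libraries were shallow, with 211 to 981 reads in sham and 431 to 837 in IRI. The other 3 changed sign between days, none past the threshold. let-7g-5p had -2.66, -0.92, 1.136 and -0.52 at days 2, 3, 7 and 14, miR-200c-3p 0.57, 2.58, -0.72 and 0.82, and miR-378b -0.90, -0.48, -1.02 and 0.23. Differences between days were not tested for these miRNAs.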

How the data were processed

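Libraries were made with the QIASeq miRNA library kit from RNA of exosomes isolated from urine with a Norgen Biotek kit. The authors trimmed adaptors with Cutadapt, aligned reads to the rat genome with Bowtie and the miRDeep2 mapper in CAP-miRseq, counted with HTSeq and scaled the counts, and the deposited signal values hold these scaled counts of 6 libraries. The scaling and the tool versions are not given in the sources used here. The deposited log2 columns, the likelihood ratio score and the p-value and FDR columns hold the authors' edgeR comparison and were not used.

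In each library a common step of which low values (worth up to 20 reads) are multiples, to within 0.1, gave read-equivalents of 935 to 50722 per library. The constant of 500 exceeds the worth of 1 read in IRI libraries but not in every sham library. Values were tested as log2(value + 500) with limma 3.58.1 in R 4.3.3, two-sided, with Benjamini-Hochberg adjustment over 110 miRNAs and a threshold of 0.05, on 3 sham and 3 IRI libraries with no filter. A fold change on this scale understates that of low values. Library measures used exact permutation tests (SciPy 1.17.1, NumPy 2.4.6, pandas 2.3.3, Python 3.11.15) and the expected number at equal depth the hypergeometric formula. Rats differ by label, so p-values are taken against the spread between rats. The 11 miRNAs at 0 in all sham rats have no such spread in sham. Their p-values rest on the IRI rats and on the variance that limma shares over miRNAs. miR-200c-3p, at 1 read in each sham rat, differed in sham only by what 1 read is worth. The fits were also run on simulated data in which only miRNAs with a mean value at or above the median were changed. That run does not cover the low miRNAs at 0 in sham. No 2 libraries shared all values.

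Named miRNAs were those past the adjusted threshold, the 10 smallest p in each direction among those with an unadjusted p under 0.05, the 10 highest mean shares of each group, those at 0 in a whole group, members of 27 lists, and the miRNAs the study names for day 1 (miR-200c-3p, miR-24-3p, miR-16-5p). miR-203a-3p, miR-486 and others beside these are list members. The members and lists were chosen with earlier results of these data known. Alternatives were other constants, a filter, other scalings, a common floor, an intensity trend, voom weights, lane as a covariate and leaving out each rat.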

Additional observations from a re-analysis of the deposited data

How the results depend on the processing

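The number of miRNAs past the adjusted threshold in limma, 1, was 9 with log2(value + 50) and 2 with a constant of 0.5 read. It was 4 with the same total and 4 recentred on the median. With a common floor of 3 reads, an intensity trend or voom weights it was 0 (5 to 18 at an unadjusted p under 0.05). Lane as a covariate leaves only sham rat 9 and IRI rat 13 to compare within a lane, so no count is given for it. Without 1 rat the number past the adjusted threshold was 1 to 3, with 2 without sham rat 6 and 3 without IRI rat 2. With miRNAs above 0 in at least 5 libraries it was 1, miR-200c-3p, since miR-101a-3p does not pass that filter. The 13 miRNAs with an unadjusted p under 0.05 became 8 with that filter, 5 with the common floor and 10 to 17 without 1 rat. The 22 without overlap became 8 with the floor, 11 with the filter and 26 to 38 without 1 rat (36, 38 and 36 without sham rat 3, 6 or 9). The difference in miRNAs above 0, 27, was 4.67 with the filter. Differences of library measures near 0 changed sign without 1 rat. The number expected at equal depth (-1.99) ranged from -3.78 to 0.412, the latter without IRI rat 1, the share of the most abundant miRNA (-0.375) from -1.57 to 1.69, the latter without sham rat 6, and that of the 10 most abundant (-0.859) from -3.89 to 1.02, with 0.072, 1.02 and 0.294 without sham rat 3, IRI rat 2 or IRI rat 13. Of 202 fits of the 13 miRNAs under alternatives, 197 kept the direction and 5, all with the common floor, gave 0. Their groups did not overlap in scaled value, so leaving out 1 rat or adding another fixed constant could not reverse a direction. This count was thus largely set in advance. No paired analysis was possible because sham and IRI are different rats that share no number. Depth limits the comparison in sham, where 55 of 110 miRNAs were at 0 in at least 1 library.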
